A study of Mus musculus with 12 samples.

Results

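The genes described here are 9 members of the pathway through which leukaemia inhibitory factor (LIF) signals in embryonic stem cells (ESCs) of the mouse, pluripotent cells grown in culture. They were chosen by name: the receptor chains Lifr and Il6st, the kinase Jak1, the transcription factor Stat3, and the target genes Socs3, Pim1, Pim3, Icam1 and Bcl3. All 9 of 9 were found among the 23496 genes of the RNA-seq table, and all 9 passed the filter on low values that left 12329 genes for testing. The 12 libraries form 3 groups of 4: wild-type ESCs in 2i medium, ESCs labelled Tfcp2l1 knockout in the same medium, and wild-type ESCs grown with 15% fetal bovine serum (FBS). The 2i medium is serum-free, built on DMEM/F12 and Neurobasal with N2 and B27, and holds the GSK3 inhibitor CHIR99021 at 3 µM and the MEK inhibitor PD0325901 at 1 µM. LIF was added at 1000 units/mL in all 3 groups, so no group lacked the ligand. The ESC line, the way the knockout was made, whether it is 1 clone, and whether feeder cells were used are not given in the sources used here. Levels are FPKM (fragments per kilobase of transcript and per fixed number of mapped fragments), which can be set side by side between genes because they are per length.

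LIF binds the receptor chain Lifr, which pairs with gp130, the product of Il6st, a chain shared by the interleukin-6 cytokine family. Kinases of the JAK family bound to the chains then phosphorylate the receptor and Stat3, which enters the nucleus and switches on target genes. Among these, Socs3 encodes an inhibitor that blocks JAK activity and so closes a feedback loop. In mouse ESCs the pathway is known for holding cells in the self-renewing state, and Tfcp2l1 is itself a known target of Stat3.

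Read numbers per library are unknown; the FPKM of a library summed to 347772 to 358340, and for transcripts of 5 to 20 FPKM the authors' bounds lay a median of 8.01% to 9.76% of the value to either side. All 10 ESC markers checked had a mean of at least 1 FPKM in each group. Tfcp2l1, the targeted gene, stood at 132 ± 13.8 FPKM (SD, n = 4) in wild-type 2i cells, 78.9 ± 5.92 FPKM in knockout libraries and 31.3 ± 4.63 FPKM with FBS; a whole-transcript value cannot show the loss of single exons. In the knockout 6 of the 10 ESC markers fell and 1 rose (limma adjusted p under 0.05). Of all 12329 genes tested, 21.4% fell and 24.0% rose, and the knockout counts of markers below stand beside the same shares. Of 20 fibroblast markers, 18 rose and 0 fell in the knockout; none was at 0 in all libraries. Their FPKM summed to 305 to 493 in wild-type 2i cells, 551 to 941 in knockout libraries and 152 to 202 with FBS. The 5 neural markers summed to 8.31 to 23.5, 22.7 to 29.0 and 35.7 to 56.9 FPKM in that order, and the 3 tested rose in the knockout. Sox1 and Pax6 were not tested. Sox1 stood at 1.19 FPKM in wild-type 2i cells and 0.62 in the knockout, and Pax6 at 0.115 and 0.575. The 9 parietal endoderm markers summed to 421 to 526, 365 to 509 and 194 to 246 FPKM. Most of each sum was Sparc, at a mean of 442, 391 and 150 FPKM. Of the 6 tested, 3 rose in the knockout while 0 fell. In wild type, 1 of the 6 (Sparc) was higher in 2i than in FBS and 3 (Pth1r, Lamb1 and Col4a1) were lower, opposite to the sum. Of all genes tested, 37.1% were higher there and 35.3% lower. The 6 visceral endoderm markers summed to 0.293 to 0.706, 0.627 to 0.933 and 3.94 to 4.75 FPKM. Amn, the 1 that was tested, rose in the knockout from 0.346 to 0.566 FPKM and stood at 2.98 FPKM with FBS. Afp and Apob were under 0.1 FPKM in every library. Amn, the neural marker Neurod1 and the parietal endoderm marker Pth1r were under 1 FPKM in every library in 2i. They passed the filter only through the FBS libraries, so their rises in the knockout lie between values under 1 FPKM. Fibroblasts also express receptors and cytokines of this pathway, and the part of any of these other cell types in the results below was not tested. In bulk RNA, fewer cells of a type and less RNA per cell cannot be told apart. The labels do not state separate cultures for the 4 libraries of a group. The p-values thus weigh each difference of group means only against the spread of these libraries, and that spread may be technical.

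In the knockout, 4 members fell (Lifr, Stat3, Icam1 and Bcl3), 2 rose (Il6st and Pim1) and 3 did not pass the test (Jak1, Socs3 and Pim3). A gene was called at a limma adjusted p under 0.05, which 45.3% of the 12329 genes reached in this comparison, 24.0% higher and 21.4% lower. The libraries of the 2 groups did not overlap for 5 members and for 44.1% of all genes. In wild type, 4 members were higher in 2i than in FBS (Jak1, Pim1, Icam1 and Bcl3), 2 were lower (Lifr and Socs3) and 3 did not pass (Il6st, Stat3 and Pim3). There 72.4% of all genes were called, 37.1% higher and 35.3% lower, so the count of 6 of 9 is near the background and is no result about the members as a list; 5 members did not overlap, beside 62.5% of all genes. The median difference over the members was -0.07 in the first comparison and 0.16 in the second on the log2(FPKM + 1) scale, beside 0.01 over all genes in each. To order the groups, the knockout was also set against FBS, where 3 of 9 members were higher and 5 lower, beside 66.6% of all genes called, 34.7% higher and 31.9% lower. In that comparison 8 members and 62.8% of all genes did not overlap; the 3 comparisons share libraries. Every difference is one of log2(FPKM + 1), a scale on which changes of low genes come out too small.

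**Figure D1:**
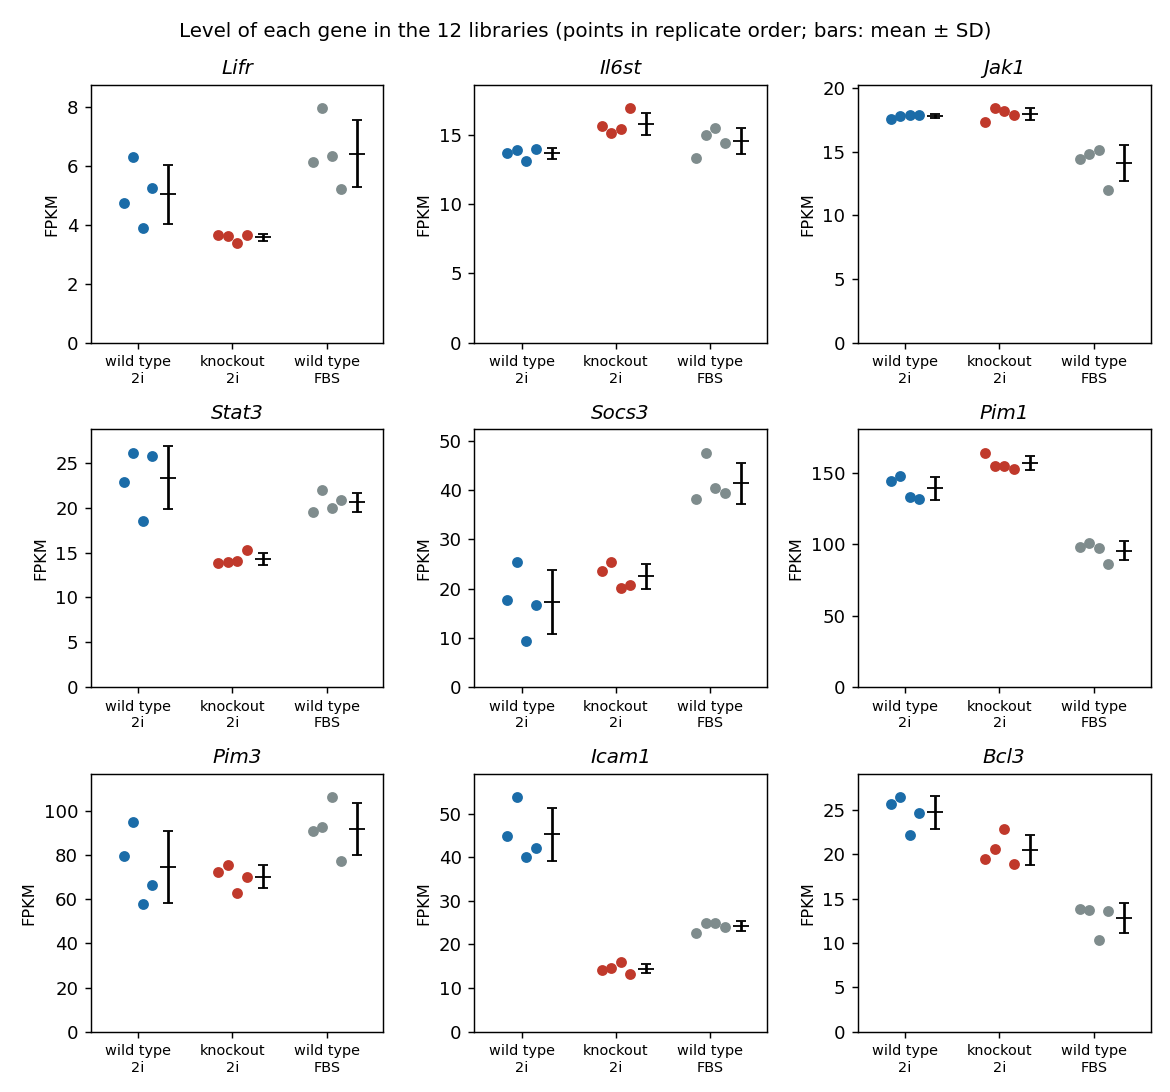
FPKM of each of the 9 genes (vertical axis, from 0) in the 4 libraries of each group (horizontal axis), 1 point per library in replicate order, with the mean and SD beside them. Icam1 in the knockout lies between 13.3 and 15.9 FPKM, below all 8 wild-type libraries, and Socs3 in FBS lies between 38.2 and 47.5 FPKM, above all 8 libraries in 2i.

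**Figure D2:**
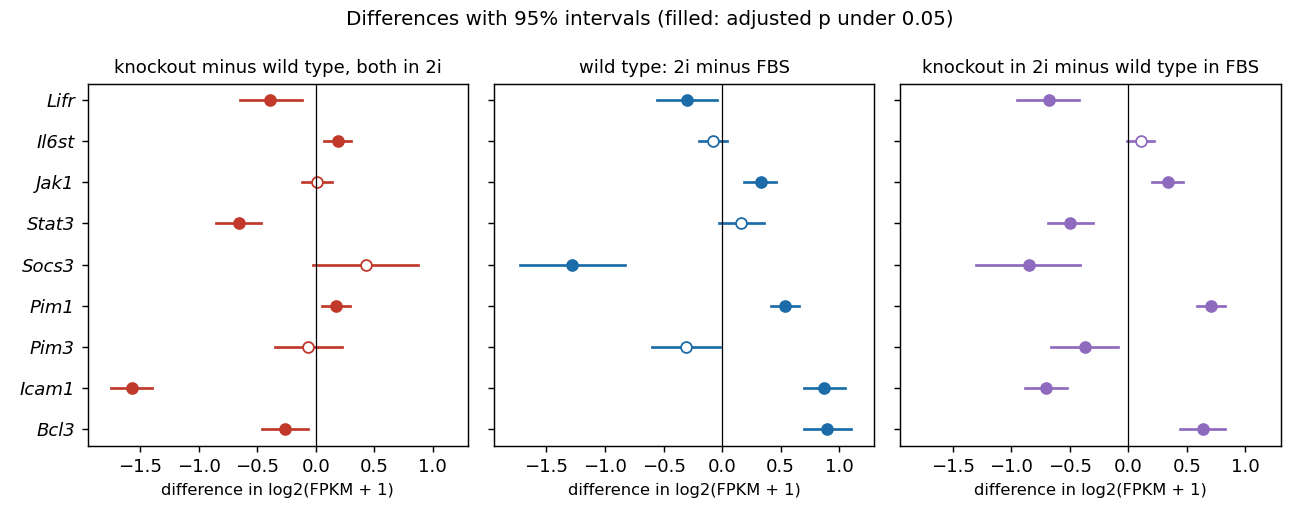
Difference in log2(FPKM + 1) for each gene (points) with its 95% interval (lines) in the 3 comparisons; filled points passed the test. Icam1 in the knockout against wild-type 2i cells stands at -1.57 and Socs3 in 2i against FBS at -1.28, and the interval of Jak1 in the knockout comparison spans 0.

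Lifr, the chain that binds LIF, had the lowest level of the 9 genes in each group. It stood at 4.75, 6.29, 3.88 and 5.24 FPKM in wild-type 2i cells, at 3.65, 3.62, 3.38 and 3.65 in the knockout, and at 6.14, 7.95, 6.33 and 5.21 in FBS. Each knockout library was below each wild-type library, in 2i by a narrow margin, whereas the wild-type libraries in 2i and FBS overlapped. Lifr fell in the knockout from 5.04 ± 1.00 to 3.57 ± 0.129 FPKM, to 70.9% of the wild-type level (log2 difference -0.39, SE 0.12, adjusted p = 0.0202). The call was lost without replicate 2 of wild-type 2i cells (adjusted p = 0.0601) and without replicate 3 of the knockout (0.0506). The mean was 6.41 ± 1.14 FPKM in FBS, with 2i lower by a log2 difference of -0.30 (SE 0.12, adjusted p = 0.0409). That call was weak: it was lost without wild-type 2i replicate 1, 3 or 4 (adjusted p = 0.0866, 0.124 and 0.0524) or FBS replicate 1, 2 or 3 (0.0598, 0.134 and 0.0673). It was also lost with no filter on low values (0.0663) and with the 8 libraries of the comparison alone (0.0805).

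The summed Lifr level joins 2 RefSeq transcripts on chromosome 15 of mm9 that start and end at different places. NM_013584 (7090542 to 7147489) has 20 exons and a coding sequence of 1092 codons in GENCODE M21. NM_001113386 (7079572 to 7135343) starts upstream, ends before the last exons of the other, and has 17 exons and 719 codons. The longer-coding NM_013584 held 3.32 ± 0.378 FPKM in wild-type 2i cells, 2.59 ± 0.176 in the knockout and 5.25 ± 1.03 in FBS. The shorter-coding NM_001113386 held 1.72 ± 0.705, 0.984 ± 0.15 and 1.16 ± 0.43 FPKM in the same order. Its share of the gene was 33.1% in wild-type 2i cells (26.2% to 42.0%), 27.5% in the knockout and 18.0% in FBS (10.8% to 24.5%), so the wild-type shares in 2i and FBS did not overlap. With the highest transcript per gene, which here is NM_013584 in every library, the difference between 2i and FBS was -0.52 (adjusted p = 0.000558), and that between knockout and wild-type 2i cells was -0.26 and not called (adjusted p = 0.0553). The authors' bounds were wide for the short transcript, at a median of 27.3% of its value against 7.73% for the long one, and the way reads were divided between transcripts is not given in the sources used here.

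Because the 2 Lifr transcripts begin at separate start sites, both promoter windows are shown, each with 250 bases before the start and 50 from it on (RefSeq, GRCm38.p6, + strand, all in lower case because no motif searched here was found in them). The window chr15:7129322-7129621 belongs to NM_001113386 and has 81.3% G and C, and chr15:7140292-7140591 belongs to NM_013584 and has 53.3%, beside a median of 52.7% over all 32851 promoter windows.
NM_001113386 start: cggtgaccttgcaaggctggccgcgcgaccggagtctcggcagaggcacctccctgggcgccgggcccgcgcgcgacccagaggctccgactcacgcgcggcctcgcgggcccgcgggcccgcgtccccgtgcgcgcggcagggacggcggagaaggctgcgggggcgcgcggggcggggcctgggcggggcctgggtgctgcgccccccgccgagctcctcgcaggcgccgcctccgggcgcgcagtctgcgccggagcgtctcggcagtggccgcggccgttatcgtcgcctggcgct
NM_013584 start: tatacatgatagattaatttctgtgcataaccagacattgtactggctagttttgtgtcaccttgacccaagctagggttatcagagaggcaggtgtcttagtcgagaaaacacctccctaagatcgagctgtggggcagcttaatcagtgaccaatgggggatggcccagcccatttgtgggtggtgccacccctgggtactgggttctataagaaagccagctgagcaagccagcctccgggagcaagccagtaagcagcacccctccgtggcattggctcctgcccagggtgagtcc

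**Figure D3:**
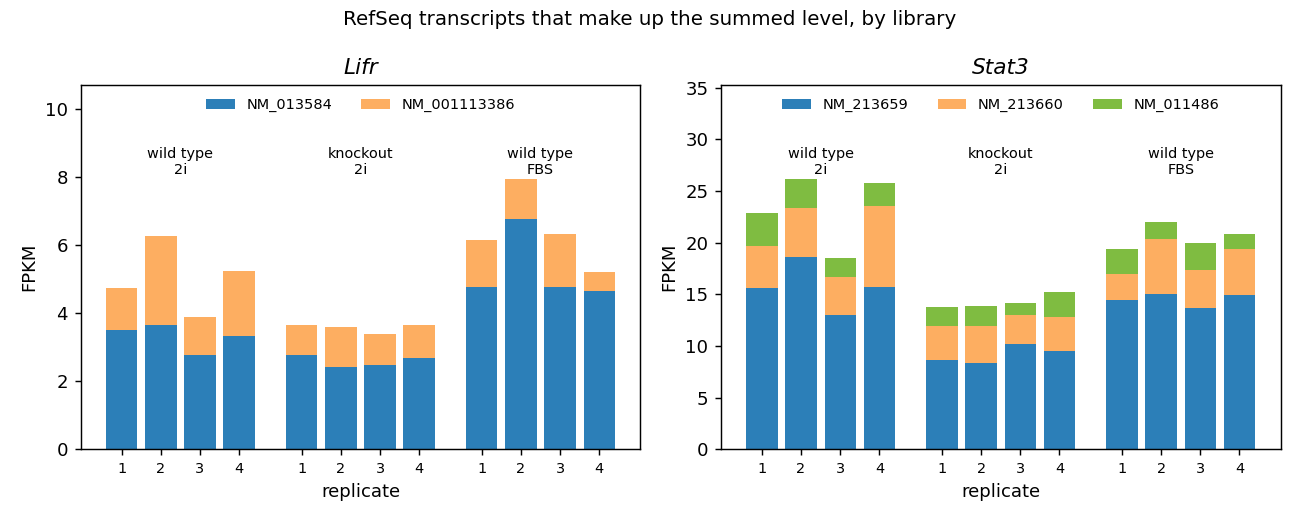
FPKM of the RefSeq transcripts of Lifr and Stat3 (stacked bars, vertical axis from 0) in each library (horizontal axis, replicate number within group). In Lifr the short transcript NM_001113386 makes up 26.2% to 42.0% of the bar in wild-type 2i cells and 10.8% to 24.5% in FBS, and in Stat3 the transcript NM_213659 makes up most of every bar.

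Il6st, which encodes the signalling chain gp130 (NM_010560; mm9, chromosome 13, 113254278 to 113297068), moved the opposite way to Lifr in the knockout, by a small amount. It stood at 13.7, 13.9, 13.1 and 14.0 FPKM in wild-type 2i cells and at 15.6, 15.1, 15.4 and 16.9 in the knockout, without overlap. It rose from 13.7 ± 0.416 to 15.7 ± 0.788 FPKM (log2 difference 0.19, SE 0.05, adjusted p = 0.0133). The FBS libraries, at 13.3, 15.0, 15.5 and 14.4 FPKM, overlapped both groups in 2i and were not told apart from either (95% interval of 2i minus FBS in wild type -0.20 to 0.04). Without FBS replicate 3, the knockout was called above FBS (0.14, adjusted p = 0.0427). Fibroblast markers rose in the same libraries, and their part in this rise was not tested. Per length, Il6st exceeded Lifr 2.78 ± 0.481 times in wild-type 2i cells, 4.40 ± 0.217 times in the knockout and 2.31 ± 0.374 times in FBS (ratio of FPKM within a library, n = 4). The knockout ratios of 4.17 to 4.62 lay above all 8 wild-type ratios. Against wild-type 2i cells this follows from the separations of Il6st and Lifr given above and is no further result.

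Jak1, the kinase that associates with gp130 (NM_146145; mm9, chromosome 4, 100824579 to 100937887), differed with the medium. Its levels were 17.6, 17.8, 17.9 and 17.9 FPKM in wild-type 2i cells, 17.3, 18.4, 18.2 and 17.9 in the knockout, and 14.4, 14.8, 15.1 and 12 in FBS. The 8 libraries in 2i overlapped by genotype and all lay above the 4 FBS libraries. Wild type in 2i was higher than FBS by a log2 difference of 0.33 (SE 0.06, adjusted p = 0.000342). The knockout differed from wild-type 2i cells by 0.01 with a 95% interval of -0.12 to 0.14 (adjusted p = 0.902).

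Stat3, the transcription factor of the pathway (mm9, chromosome 11, 100748124 to 100800825), fell in the knockout. Wild-type libraries in 2i held 22.9, 26.1, 18.5 and 25.8 FPKM, the knockout 13.8, 13.9, 14.1 and 15.3, and FBS 19.5, 22.0, 20 and 20.8. The knockout lay below all 8 wild-type libraries, while the wild-type groups overlapped. The level went from 23.3 ± 3.52 to 14.3 ± 0.678 FPKM, or 61.2% of wild type (log2 difference -0.66, SE 0.09, adjusted p = 0.000101). Between 2i and FBS, at 20.5 ± 1.09 FPKM, the difference of 0.16 did not pass (95% interval -0.03 to 0.36, adjusted p = 0.115). It passed without replicate 3 of wild-type 2i cells, the lowest of its group (0.27, adjusted p = 0.00167). The knockout was also below FBS (-0.50, SE 0.09, adjusted p = 0.000312).

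The means of all 3 annotated Stat3 transcripts were lower in the knockout, in about their wild-type proportions. NM_213659, whose coding sequence has 770 codons, held 67.7% of the gene in wild-type 2i cells, 64.5% in the knockout and 70.7% in FBS. NM_213660, with 769 codons, held 21.5%, 22.5% and 19.3%. NM_011486 has 722 codons, the length of the truncated Stat3 beta form, and held 10.9%, 13.0% and 9.95%. The ranges of the shares overlapped between the 3 groups for each transcript. In FPKM, NM_213659 stood at 15.7 ± 2.28, 9.20 ± 0.808 and 14.5 ± 0.583 in that order of groups. NM_213660 stood at 5.06 ± 1.89, 3.21 ± 0.267 and 4.01 ± 1.21, and NM_011486 at 2.53 ± 0.64, 1.86 ± 0.551 and 2.02 ± 0.561. NM_213660 and NM_011486 were not tested alone, and for NM_011486 the wild-type and knockout libraries in 2i overlapped. The authors' bounds were a median of 11.7% of the value for NM_213660 and 17.0% for NM_011486, against 6.49% for NM_213659.

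Icam1, a cell adhesion molecule that binds leukocyte integrins (NM_010493; mm9, chromosome 9, 20820404 to 20833240; 7 exons), showed the widest change of the 9 genes in the knockout. It stood at 44.9, 53.7, 40.1 and 42.1 FPKM in wild-type 2i cells, at 14.1, 14.6, 15.9 and 13.3 in the knockout, and at 22.6, 25.0, 25.0 and 23.9 in FBS. No group overlapped another. Icam1 fell from 45.2 ± 5.97 to 14.5 ± 1.11 FPKM, to 32% of the wild-type level (log2 difference -1.57, SE 0.08, adjusted p = 4.57e-08). Wild type in FBS, at 24.1 ± 1.12 FPKM, was also below wild-type 2i cells (2i minus FBS 0.87, SE 0.08, adjusted p = 7.46e-07). The knockout in 2i was lower still, at 60.1% of the FBS level (-0.70, SE 0.08, adjusted p = 7.91e-06). These 3 calls held under every alternative run, including each left-out library. Icam1 fell in the same libraries in which 18 of 20 fibroblast markers rose, beside 24.0% of all genes. The part of such cells in the Icam1 result was not tested.

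Socs3, the feedback inhibitor (NM_007707; mm9, chromosome 11, 117827401 to 117830680; 2 exons), was set apart by medium. Levels were 17.7, 25.3, 9.44 and 16.7 FPKM in wild-type 2i cells, 23.6, 25.4, 20.1 and 20.8 in the knockout, and 38.2, 47.5, 40.4 and 39.3 in FBS. All FBS libraries exceeded all libraries in 2i, and the wild-type 2i group was the most scattered group. Its mean of 17.3 ± 6.48 FPKM was 41.8% of the FBS mean of 41.3 ± 4.18 (log2 difference -1.28, SE 0.21, adjusted p = 9.71e-05). The knockout, at 22.5 ± 2.48 FPKM, was likewise below FBS (-0.85, SE 0.21, adjusted p = 0.00266). Against wild-type 2i cells the knockout differed by 0.43, which did not pass (95% interval -0.02 to 0.87, adjusted p = 0.107). Without replicate 2 of wild-type 2i cells the difference was 0.63 and passed (adjusted p = 0.0126), as it did with the replicate number as a block (0.0445). Set against the transcription factor that drives it, Socs3 stood at 0.725 ± 0.194 times Stat3 in wild-type 2i cells, 1.58 ± 0.224 times in the knockout and 2.01 ± 0.114 times in FBS (ratio of FPKM within a library). The knockout ratios of 1.36 to 1.83 lay above the wild-type ratios in 2i of 0.51 to 0.967 and below the FBS ratios of 1.89 to 2.16. Between the genotypes Socs3 itself did not pass, and Stat3, by which it is divided, stood in the knockout at 61.2% of wild type. The higher ratio is thus no evidence of a change in Socs3.

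A STAT-type motif was looked for in the 11 RefSeq promoter windows of the 9 genes, since 5 of the 9 are listed here as Stat3 targets. The palindrome TTCNNNGAA was found in 2 of the 9 genes, Icam1 and Socs3, and in 8.3% of all 32851 windows. Its tighter form TTCCNGGAA, every match of which is also a match of the first, was found in the window of Icam1 alone and in 1.15% of all windows. A paired site of the kind bound by the Tfcp2l1 family, CCAG repeated after a gap of any 6 bases, was searched on both strands. It was found in none of the 9 and in 3.44% of all windows. At so low a share, finding none in 11 windows says little. The Icam1 and Socs3 windows are shown because they hold the matches, which stand in capitals. That of Icam1 is chr9:21015690-21015989 on the + strand and that of Socs3 is chr11:117969317-117969616 on the - strand, both RefSeq on GRCm38.p6, written 5′ to 3′ along the gene. The Icam1 match TTCCCGGAA covers bases -42 to -34 and the Socs3 match TTCTTAGAA bases -154 to -146, counted from the start site of the RefSeq window as 0. Those start sites, 21015940 for Icam1 and 117969366 for Socs3, are not the starts of the measured transcripts in GENCODE M21. These lie at 21015985 (NM_010493) and 117969186 (NM_007707), so the positions are relative to the windows only. The Socs3 window ends at 117969317, upstream of the measured start on the - strand. The bases between that end and the measured start were not searched, so whether they hold a match is not known here. For Jak1, Pim1, Pim3 and Bcl3 too, the start site of the window is not that of the measured transcript. In Stat3, NM_213660 (100939380) and NM_011486 (100939404) start outside the window of 100939491 to 100939790. A match is a description of the letters, and binding was not measured here.
Icam1: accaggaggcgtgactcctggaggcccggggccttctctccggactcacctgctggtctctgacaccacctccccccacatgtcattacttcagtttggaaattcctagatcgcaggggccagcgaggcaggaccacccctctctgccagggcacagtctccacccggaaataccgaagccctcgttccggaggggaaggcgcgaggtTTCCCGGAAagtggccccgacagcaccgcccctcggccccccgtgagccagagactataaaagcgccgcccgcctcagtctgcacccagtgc
Socs3: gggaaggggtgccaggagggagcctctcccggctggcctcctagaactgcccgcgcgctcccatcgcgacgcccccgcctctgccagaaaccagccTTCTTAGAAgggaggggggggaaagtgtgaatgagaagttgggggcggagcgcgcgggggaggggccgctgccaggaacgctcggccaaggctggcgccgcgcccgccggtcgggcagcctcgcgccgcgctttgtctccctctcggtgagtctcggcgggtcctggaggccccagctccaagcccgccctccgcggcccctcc

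Pim1 and Pim3 encode related serine/threonine kinases that promote survival and growth, and differed in how they stood across media. Pim1 (NM_008842; mm9, chromosome 17, 29627990 to 29632404) had the highest level of the 9 genes in each group, at 144, 148, 133 and 132 FPKM in wild-type 2i cells, 164, 155, 155 and 153 in the knockout, and 98.4, 101, 97.3 and 86.0 in FBS. No group overlapped another, with the knockout highest and FBS lowest. Pim1 rose in the knockout from 139 ± 8.07 to 157 ± 5.06 FPKM (log2 difference 0.17, SE 0.05, adjusted p = 0.0232). That call was lost without replicate 3 or 4 of wild-type 2i cells (adjusted p = 0.0518 and 0.0697) or replicate 1 of the knockout (0.0712). Wild type in 2i was above FBS, at 95.6 ± 6.54 FPKM, by 0.54 (SE 0.05, adjusted p = 1.71e-06).

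Pim3 (NM_145478; mm9, chromosome 15, 88692624 to 88696156) had its highest mean in FBS. It stood at 79.5, 94.9, 57.6 and 66.4 FPKM in wild-type 2i cells, at 72.4, 75.4, 62.9 and 70.0 in the knockout, and at 90.6, 92.8, 106 and 77.2 in FBS. The wild-type libraries in 2i spanned the whole knockout range and overlapped FBS. The knockout differed from wild-type 2i cells by -0.07 (95% interval -0.35 to 0.22, adjusted p = 0.713), and the sign turned without replicate 2 of wild-type 2i cells (0.06). Wild type in 2i was lower than FBS by -0.31 and just missed the threshold (SE 0.13, adjusted p = 0.0519). It passed with median-ratio scaling (0.0375), quantile normalization (0.0447) and the replicate block (0.0399), and without wild-type 2i replicate 2 (0.00516) or FBS replicate 4 (0.0251). The knockout was below FBS (-0.37, SE 0.13, adjusted p = 0.0244), a call lost without knockout replicate 3 (0.0697) or FBS replicate 2 or 3 (0.0506 and 0.0748). Within a library, Pim1 stood at 1.92 ± 0.315 times Pim3 in wild-type 2i cells, 2.24 ± 0.17 times in the knockout and 1.05 ± 0.0905 times in FBS. The FBS ratios of 0.916 to 1.11 lay below all 8 ratios in 2i. For both Pim genes the authors' bounds did not enclose the value in any library, so they gave no precision there.

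Bcl3, an IkB-family cofactor of NF-kB transcription factors (NM_033601; mm9, chromosome 7, 20393811 to 20408104), differed mainly with the medium. Levels were 25.7, 26.4, 22.2 and 24.6 FPKM in wild-type 2i cells, 19.5, 20.6, 22.8 and 18.9 in the knockout, and 13.8, 13.7, 10.3 and 13.6 in FBS. The FBS libraries lay below all others, and the 2 genotypes in 2i overlapped through knockout replicate 3 and wild type replicate 3. Wild type in 2i, at 24.7 ± 1.82 FPKM, was 1.92 times FBS at 12.9 ± 1.71 (log2 difference 0.90, SE 0.09, adjusted p = 1.56e-06). The fall in the knockout, to 20.5 ± 1.70 FPKM, was small (-0.26, SE 0.09, adjusted p = 0.0315). It was lost in 6 of 8 fits that left out a library: wild-type 2i replicate 1, 2 or 4 (adjusted p = 0.0766, 0.0804 and 0.0585) and knockout replicate 1, 2 or 4 (0.0791, 0.0565 and 0.0852).

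Several of these genes moved together among the wild-type libraries in 2i, a pattern noticed after the values were seen. Replicate 2 held the highest value for 7 of 9 genes, all but Il6st and Jak1, and replicate 3 the lowest for 7 of 9, all but Jak1 and Pim1. Over all genes tested, replicate 2 was highest for 30.2% and replicate 3 lowest for 36.9%. Socs3 deviated most, by 0.60 in replicate 2 and -0.74 in replicate 3 from its group mean of log2(FPKM + 1). Lifr deviated by 0.29 and -0.29, Pim3 by 0.37 and -0.34, and Stat3 by 0.17 and -0.31. Of 21 other LIF and STAT3 targets, 11 were highest in replicate 2 (52.4%) and 12 lowest in replicate 3 (57.1%). Over all 61 pathway list genes tested, these were 20 (32.8%) and 26 (42.6%), near the shares over all genes. In FBS, replicate 2 was highest for 5 of 9 genes, beside 21.4% of all genes, and lowest for 0. In the knockout no replicate was the highest for more than 3 of 9 genes. All genes tested had median deviations of at most 0.02 in size in the 4 wild-type libraries in 2i.

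**Figure D4:**
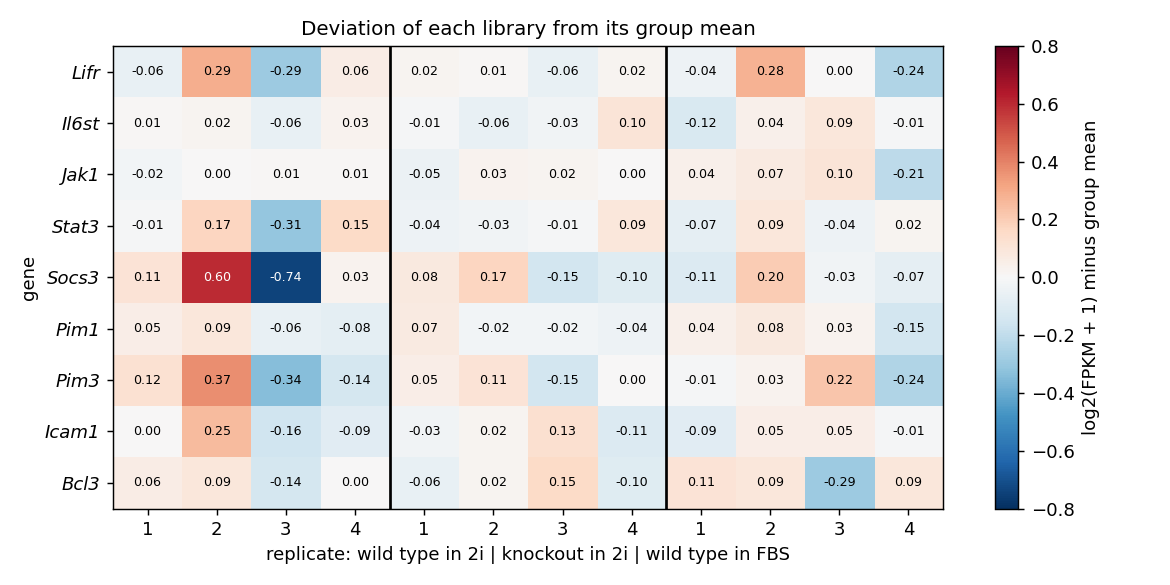
Deviation of log2(FPKM + 1) from the group mean for each gene (rows) in each library (columns, replicate number within group), with the value in each cell, red above and blue below the mean. In wild-type 2i cells, replicate 2 is red and replicate 3 blue for most genes, with Socs3 at 0.60 and -0.74.

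The other genes of the pathway were taken from 4 lists of 64 genes, of which 61 passed the filter; Clcf1, Il27 and Il27ra did not. In the knockout 17 rose and 10 fell, or 44.3% of those tested beside 45.3% of all genes, and between 2i and FBS 25 were higher in 2i and 19 lower, or 72.1% beside 72.4%. As a whole these lists were thus called about as often as all genes. Among gp130-family ligands and receptors, 7 of 11 rose in the knockout and 0 fell (63.6% called beside 45.3% of all genes), with a median difference of 0.45 beside 0.01 over all genes. Ctf1, the cytokine cardiotrophin, went from 0.881 to 2.52 FPKM (0.90, SE 0.11), Cntf from 1.04 to 2.00 FPKM (0.57, SE 0.09) and Lif itself from 5.55 ± 0.777 to 8.24 ± 0.992 FPKM (0.50, SE 0.09, adjusted p = 0.000998). Il11ra1, a receptor chain for interleukin-11, did not pass, at 3.51 and 4.25 FPKM. Fibroblasts can secrete Lif and Il6; fibroblast markers rose in the same libraries and their part in these rises was not tested.

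Between the media, the same list split. Osm (3.15 and 0.585 FPKM), the receptor Il6ra (2.59 and 0.646) and Il6 (1.5 and 0.293) were higher in 2i than in FBS. Il11 (0.156 and 1.16 FPKM) and Ctf1 (0.881 and 2.29) were lower in 2i. Il11 reached at most 0.359 FPKM in any library in 2i and passed the filter only through the FBS libraries. Osm, Il6ra and Il6 were under 1 FPKM in every FBS library and passed it only through libraries in 2i. The same held for the receptor gene Osmr (1.5 and 0.704 FPKM), which was also called higher in 2i. Calls of such genes between the media are not independent of the filter. In all, 5 of 11 were higher in 2i and 4 lower, those calls included, or 81.8% called beside 72.4% of all genes. Of the 20 fibroblast markers, 12 were higher in 2i and 3 lower, beside 37.1% and 35.3% of all genes. Among the higher ones, Dcn and Lum reached at most 0.723 and 0.256 FPKM in FBS and passed the filter only through libraries in 2i.

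Of 9 other JAK and STAT genes, 1 rose and 2 fell in the knockout, and 7 were higher and 1 lower in 2i than in FBS, with a median of 0.44 on the log2 scale. These were 33.3% and 88.9% called, beside 45.3% and 72.4% of all genes. Stat4 rose in the knockout from 1.61 to 2.73 FPKM, and was lower in 2i than in FBS, at 3.40 FPKM (-0.76, SE 0.09). Jak3 fell from 8.92 to 6.91 FPKM (-0.32, SE 0.11, adjusted p = 0.0298). That fall was lost with the highest transcript per gene (0.052) and without wild-type 2i replicate 1, 2 or 4 (0.0781, 0.0865 and 0.0639) or knockout replicate 3 or 4 (0.0792 and 0.0833). Higher in 2i than in FBS were Stat6 (11.2 and 7.60 FPKM), Jak3 (8.92 and 5.16) and Stat5a (2.46 and 1.23). Tyk2 was at 11.5 and 9.72 FPKM in wild type and knockout and did not pass, but did without wild-type 2i replicate 3 (-0.30, adjusted p = 0.0086) and with the replicate block (0.0397). Stat2 did not pass between the media, at 7.96 and 7.24 FPKM, and passed without wild-type 2i replicate 3 (adjusted p = 0.0476).

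Among 20 regulators and adaptors, 4 rose and 2 fell in the knockout, and 3 were higher and 9 lower in 2i than in FBS. At 30.0% and 60.0% called, both shares were below the 45.3% and 72.4% of all genes. The SUMO ligase genes of the PIAS family, known as STAT inhibitors, fell in 2 cases: Pias2 from 92.0 to 70.0 FPKM (-0.39, SE 0.04) and Pias3, which binds Stat3, from 12.6 to 8.09 (-0.57, SE 0.07). Pias4 did not pass, at 39.4 and 37.4 FPKM, though it did without knockout replicate 4 (-0.11, adjusted p = 0.0462). The phosphatase genes Ptpn2 (37.0 to 45.8 FPKM) and Ptpn11 (19.0 to 21.6) and the adaptor Gab1 (44.0 to 49.4) rose. Between media, the feedback inhibitors Socs2 (20.4 in 2i and 46.5 FPKM in FBS; -1.15, SE 0.11) and Cish (1.19 and 3.39; -0.99, SE 0.11) were lower in 2i, as was Ptpn11 (19.0 and 27.6). Socs3, described above, belongs to the same gene family. Pias2 (92.0 and 50.3 FPKM), Stam (15.5 and 10.9) and Pias4 (39.4 and 32.6) were higher in 2i, and the adaptor Grb2 did not pass, at 35.2 and 35.7 FPKM.

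Of 21 other LIF and STAT3 targets, 5 rose and 6 fell in the knockout with a median of -0.01, and 10 were higher and 5 lower in 2i than in FBS. These were 52.4% and 71.4% called, near the 45.3% and 72.4% of all genes. Among those higher in 2i, Pramel7 (10.2 and 0.287 FPKM) was under 1 FPKM in every FBS library. It passed the filter only through libraries in 2i, so its call between the media is not independent of the filter. The survival gene Bcl2l1 fell from 28.1 to 22.5 FPKM. Tfcp2l1, the targeted gene, is on this list as well. Irf1 (8.92 to 13.2 FPKM), Ier3 (10.2 to 16.7) and Cebpb (8.82 to 13.2) rose. Klf4, a naive pluripotency factor, stood at 264 ± 63.8 and 210 ± 13.9 FPKM and did not pass (adjusted p = 0.103), but did without wild-type 2i replicate 3 (-0.41, adjusted p = 0.0183). Higher in 2i than in FBS were Tfcp2l1 (2.05, SE 0.10), Klf4 (264 and 91.9 FPKM; 1.49, SE 0.14) and Klf5 (105 and 62.0). Lower in 2i were the third Pim kinase gene, Pim2 (7.21 ± 2.65 and 46.6 ± 30.1 FPKM; -2.40, SE 0.32), Myc (5.03 and 14.4) and Ier3 (10.2 and 20.5). Pim2 in FBS ranged from 25.3 to 90.6 FPKM between libraries, all above its highest value of 11.2 in wild-type 2i cells. Sgk1 did not pass, at 155 and 142 FPKM.

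**Figure D5:**
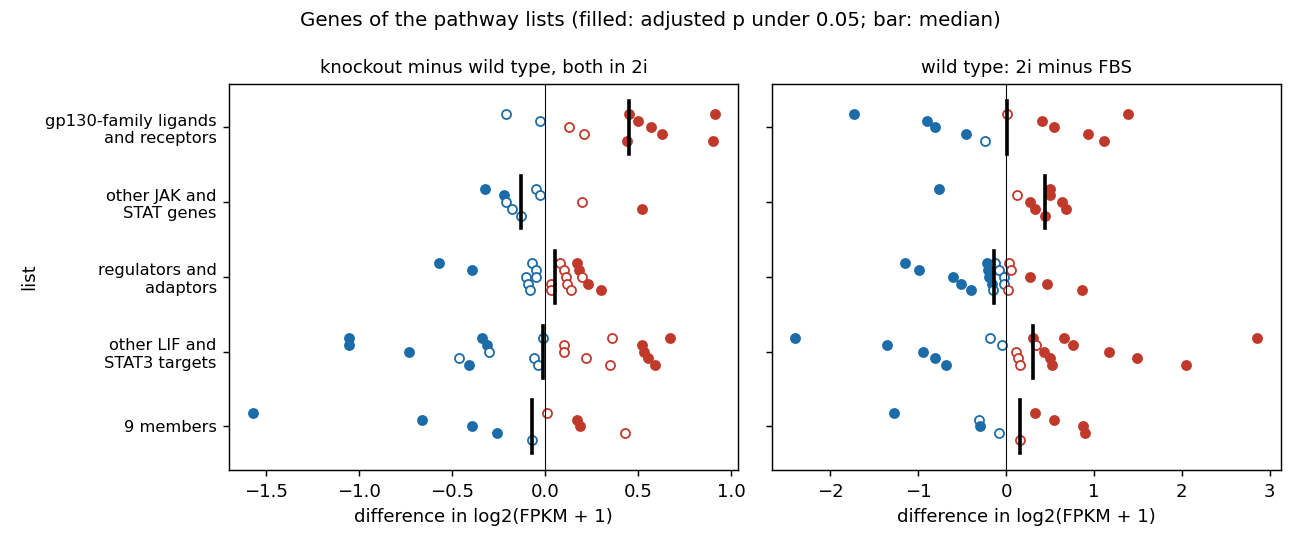
Difference in log2(FPKM + 1) (horizontal axis) of each gene tested in the 4 pathway lists and of the 9 members (rows), for the knockout against wild-type 2i cells and for 2i against FBS in wild type; filled points passed the test and the bar is the list's median. The median of the ligands and receptors is 0.45 in the knockout, and that of the other JAK and STAT genes is 0.44 between media.

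The genes whose levels followed each member most closely were sought among 8209 genes with a mean of at least 5 FPKM, by Pearson's r of log2(FPKM + 1) over the 12 libraries. The libraries fall into 3 groups, so a high r mainly describes a like order of the 3 group means, and genes are not independent of each other. Icam1 was most like Slc39a4 (0.983), Spint1 (0.973) and Cited2 (0.969), and Stat3 most like Arc (0.978), Frrs1 (0.977) and Tomm7 (0.974). Arc, for example, stood at 8.94 FPKM in wild-type 2i cells, at 2.52 with the knockout and at 6.58 with FBS. Socs3 was most like Zc3h10 (0.99), Kat5 (0.985) and Gstt2 (0.984), Pim1 most like Vps54 (0.99), Lysmd3 (0.984) and Rfk (0.983), and Pim3 most like Ppm1j (0.956), Dele1 (0.927) and Abca7 (0.926). Lifr was most like Lama1 (0.957), Aco1 (0.955) and Rilpl2 (0.952), and Il6st most like Cenpi (0.933), Stk38 (0.894) and Leng8 (0.891). Jak1 was most like Tpd52l2 (0.985), Mpzl1 (0.979) and Man2a2 (0.973), and Bcl3 most like Cenpx (0.977), Coq10b (0.973) and Dtymk (0.972). The 9 members were left out of this search, and pathway list genes with a mean under 5 FPKM could not be found by it. None of the 9 had one of the remaining pathway list genes among its 3 most alike. How closely the members followed each other was not examined in this search.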

How the data were processed

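Per the labels' protocols, Trizol served for RNA extraction and a TruSeq kit for the libraries. The submitters' processing notes name CASAVA 1.8.2, Cufflinks and mouse build mm9; the aligner and the Cufflinks version are not given in the sources used here. Deposited by the authors were FPKM values per RefSeq transcript, with bounds and a status, per the file headers. FPKM are scaled to transcript length and library size, so depth cannot be recovered and no count test was used.

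Of 30761 entries, 98.82% received a symbol from RefSeq (GRCm38.p6) or GENCODE M21 names, and the 362 others kept their accession. Entries were summed per symbol, and 7 genes with a failed estimate were left out. Testing covered genes that reached 1 FPKM in 4 or more libraries, on log2(FPKM + 1) with limma 3.58.1 (R 4.3.3): 1 mean per group over all 12 libraries, eBayes with trend, two-sided, Benjamini-Hochberg over all genes. The fit was tested on simulated data. Coordinates are mm9, printed 1-based; promoters and codon counts are RefSeq and GENCODE on GRCm38. Among 66 library pairs, 0 were identical. The knockout against FBS was added to order the groups. Named pathway genes were up to 3 called genes per list and direction with the smallest adjusted p, and the highest-expressed gene not called; some of these are not reported here. The members and lists were chosen with earlier results of these data known. Python 3.11.15, numpy 2.4.6, pandas 2.3.3 and matplotlib 3.10.9 were used.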

Additional observations from a re-analysis of the deposited data

Results flagged for a closer look

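In 2 of the 27 gene and group pairs checked, 1 library stood apart from the other 3 of its group by more than Dixon's 95% critical value, which chance gives in about 1 of 20 groups. Lifr in knockout replicate 3 was lowest, at 3.38 FPKM against 3.62 to 3.65 in the others, and the gap was 0.87 of the range; the whole range of this group was narrow. Bcl3 in FBS replicate 3 was lowest, at 10.3 FPKM against 13.6 to 13.8 in the others, with a gap of 0.948 of the range.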

How the results depend on the processing

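The alternatives were a replicate block, quantile normalization, median-ratio scaling, pseudocounts of 0.1 and 0.01, a filter of 5 FPKM or none, fits to only the 8 libraries compared, eBayes without trend, the highest entry per symbol and leaving out each library in turn. Of the 9 members, 4 to 7 were called in the knockout (6 as reported), 5 to 7 between 2i and FBS (6) and 7 to 8 in the knockout against FBS (8). In fits without 1 library the counts were 4 to 5, 5 to 7 and 7 to 8. With a filter of 5 FPKM, which leaves fewer genes, pathway list genes called went from 44 to 28 between 2i and FBS and from 41 to 27 in the knockout against FBS. The members whose calls changed are named with their values in the text above; the cause of those changes was not tested.

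Signs turned only for differences that were not called, among the genes named. Without 1 library, Jak1 in the knockout ranged from -0.00028 (without knockout replicate 2) to 0.03, and Pim3 from -0.18 to 0.06 (without wild type in 2i replicate 2). Between 2i and FBS, Grb2 ranged from -0.07 to 0.02 (without wild type in 2i replicate 2). Il11ra1 there was -0.03 after quantile normalization, -0.15 with its highest entry, and -0.01, -0.02, -0.03 and -0.02 without wild type in 2i replicate 1 or 4 or FBS replicate 2 or 4, with 0.09 the highest such value.

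Replicate numbers are shared between groups, but same-numbered libraries deviated together only in part: r over genes was 0.055, 0.258, 0.216 and 0.194 between knockout and wild type in 2i, so the numbers were not taken to pair the libraries. With the replicate block, 7 members were called in the knockout and 7 between 2i and FBS. The depth is unknown, which limits what can be said of transcripts under 1 FPKM.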
